A study of Bos indicus with 6 samples.

Results

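FOXJ1, RFX2, RFX3, MYB, TP73, CCNO, E2F4 and E2F5 are regulators through which an epithelial precursor becomes a multiciliated cell. They were taken by symbol, and each matched 1 row, so that 8 of the 24616 genes listed in the isthmus of the bovine oviduct are described here. The isthmus is the narrow end of the oviduct next to the uterus, and its wall holds ciliated and secretory epithelium, stroma and thick smooth muscle.

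The study compared cows induced to ovulate a large follicle, followed by a large corpus luteum (LF/LCL), with cows induced to ovulate a small follicle, followed by a small corpus luteum (SF/SCL), to ask how the hormonal milieu around ovulation bears on the oviduct. All were healthy multiparous Nelore cows (Bos indicus). All were pre-synchronized with 0.5 mg of the prostaglandin F2α analog sodium cloprostenol and 1 µg of the GnRH agonist buserelin acetate, given 7 days apart in an order that differs between the sources used here. On day -10 all received an intravaginal device with 1 g of progesterone, and 2 mg of estradiol benzoate by intramuscular injection. LF/LCL cows also received the prostaglandin on that day. The device was removed 42 h before GnRH in LF/LCL cows and 30 h before GnRH in SF/SCL cows, with prostaglandin for all cows at removal and again 6 h later. GnRH was given to every cow on day 0, and tissue was collected on day 4. The LF/LCL group was represented by cows 617, 79 and 527 and the SF/SCL group by cows 856, 489215 and 97, with 1 RNA-seq library of whole isthmus tissue per cow. The authors ranked the animals and sequenced those at the opposite ends of the ranking, so these cows do not stand for all animals of their groups.

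Multiciliated cells arise from precursors that stop dividing, make many centrioles in the cytoplasm and dock them at the surface as the bases of motile cilia. GMNC and MCIDAS act at the head of this program, and MCIDAS works in complex with E2F4 or E2F5 to switch on genes of centriole production, whereas FOXJ1 and the RFX factors switch on genes of the motile axoneme. In the oviduct the beating cilia help to move gametes and the embryo, and the ciliated and secretory cells of its lining vary with estradiol and progesterone.

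The reads counted over genes, recovered from the deposited values, were 25652651, 28659214 and 29836083 in LF/LCL cows 617, 79 and 527, and 34193164, 25472906 and 23899117 in SF/SCL cows 856, 489215 and 97. Values below are normalized counts, the reads of a gene divided by the size factor of the library. Differences are log2 fold changes of SF/SCL over LF/LCL on the log2(normalized count + 1) scale, with a standard error (SE), and a positive value is higher in SF/SCL.

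The library of SF/SCL cow 489215 stood apart. In it 34.5% of the 15387 genes tested lay more than 2-fold from the mean of the other 5 libraries, against 5.54% to 13.0% in each of the others. Its normalized counts summed to 33913666, against 25901138 to 26900121 in the others, so that its levels are lower relative to the rest in CPM, where the reads of each library are scaled to the same total. The levels in CPM given below were chosen after seeing the data. Results are therefore given with all 6 libraries and without that cow. Each cow was left out in turn, and cow 489215 was the only cow whose omission gave genes past the threshold in the limma fit. That this cow stands apart, and that its omission gives calls, was known from earlier results of these data, so the adjusted p values without it do not come from an independent choice. That omission leaves 2 SF/SCL cows.

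FOXJ1 (ENSBTAG00000007916) is the forkhead factor that drives the genes of motile cilia. Its normalized counts were 6276, 5421 and 3436 in LF/LCL cows 617, 79 and 527, and 12042, 2609 and 11225 in SF/SCL cows 856, 489215 and 97. Cows 856 and 97 had the highest counts and cow 489215 the lowest, so that the groups overlapped. The LF/LCL cows averaged 5044 ± 1457 (SD, n = 3), and the SF/SCL cows 8625 ± 5226 (SD, n = 3). FOXJ1 had a log2 fold change of 0.53 (SE 0.62), less than the spread between cows, and 1.25 (SE 0.24) without cow 489215.

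RFX2 (ENSBTAG00000017661) and RFX3 (ENSBTAG00000000819) are winged-helix factors that bind the X-box in promoters of ciliary genes. RFX2 had 1131, 996 and 999.6 normalized counts in LF/LCL cows 617, 79 and 527, and 1761, 1070.4 and 1672 in SF/SCL cows 856, 489215 and 97. Cow 489215 lay among the LF/LCL cows, and the other SF/SCL cows lay above them. In CPM, however, cow 489215 was lowest for RFX2, at 31.6 against 37.0 to 42.1 in the LF/LCL cows. RFX3 had 340.2, 335 and 327 in the LF/LCL cows in the same order, and 705, 65.2 and 619 in the SF/SCL cows. The LF/LCL cows were close together for RFX3, at 334 ± 6.78 (SD, n = 3), with SF/SCL cows on both sides at 463 ± 347 (SD, n = 3). The log2 fold change of RFX2 was 0.49 (SE 0.24), and 0.72 (SE 0.10) without cow 489215. That of RFX3 was -0.12 (SE 0.89) by limma but 0.46 by edgeR and 0.48 by DESeq2 with 6 libraries, and limma gave 0.98 (SE 0.13) without that cow. The RFX2 gene overlaps an uncharacterized gene in the RefSeq annotation, and the use of strand in counting was not given in the sources used here, so its reads are uncertain to that extent.

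MYB (ENSBTAG00000012074) acts early in the program, in cells that leave the cell cycle and amplify centrioles. Its normalized counts were 1283, 876 and 742 in LF/LCL cows 617, 79 and 527, and 1839, 828 and 1802 in SF/SCL cows 856, 489215 and 97. TP73 (ENSBTAG00000005812), a transcription factor that acts on FOXJ1 and other genes of the program, had 467, 405 and 354 in the LF/LCL cows and 704, 132 and 656 in the SF/SCL cows. For both genes cows 856 and 97 were highest. Cow 489215 lay inside the LF/LCL range for MYB and below it for TP73, and in CPM it was also below that range for MYB, at 24.4 against 28.3 to 47.8. The log2 fold change of MYB was 0.57 (SE 0.38), and 0.95 (SE 0.22) without cow 489215. That of TP73 was -0.04 (SE 0.65) by limma but 0.27 by edgeR and 0.29 by DESeq2 with 6 libraries, and limma gave 0.74 (SE 0.16) without that cow.

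CCNO (ENSBTAG00000047594) encodes cyclin O, which is needed for the mass production of centrioles. It had 72.2, 8.45 and 18.4 normalized counts in LF/LCL cows 617, 79 and 527, and 306, 176 and 66.1 in SF/SCL cows 856, 489215 and 97. Cow 856 was highest and cow 489215 next, and LF/LCL cow 617 lay just above SF/SCL cow 97, so that the groups overlapped. The value of cow 79 rests on 9 reads, with a 95% exact Poisson interval of 4.12 to 17.1 reads, and that of cow 856 on 403 reads, with an interval of 365 to 444 reads, for counting error only. Of the 8 genes, CCNO alone had an SD over the 6 libraries (114) above its mean (108) and so missed the filter of the main test. In the fit without a filter its log2 fold change was 2.69 (SE 0.89, limma unadjusted p = 0.0207, adjusted p = 0.488). Without cow 489215, in the fit filtered on the mean alone, it was 2.59 (SE 1.00, limma adjusted p = 0.124), and the adjusted p lay between 0.0937 and 0.999 under the other settings by limma, edgeR or DESeq2. CCNO overlaps an uncharacterized gene in the RefSeq annotation, so its reads are uncertain in the manner of RFX2.

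E2F4 (ENSBTAG00000012063) and E2F5 (ENSBTAG00000009378), the partners of MCIDAS, are also repressors of cell cycle genes in many other cells. E2F4 had 1623, 1637 and 1274 normalized counts in LF/LCL cows 617, 79 and 527, and 1228, 2651 and 1325 in SF/SCL cows 856, 489215 and 97. E2F5 had 307, 211 and 272 in the LF/LCL cows and 227, 546 and 362 in the SF/SCL cows. Cow 489215, low for FOXJ1, RFX3 and TP73, was the highest of the 6 for both genes. The log2 fold change of E2F4 was 0.12 (SE 0.33) and turned to -0.23 (SE 0.14) without that cow. That of E2F5 was 0.45 (SE 0.37), and 0.14 (SE 0.27) without it. E2F5 overlaps RBIS in the RefSeq annotation, so its reads are likewise uncertain.

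**Figure D1:**
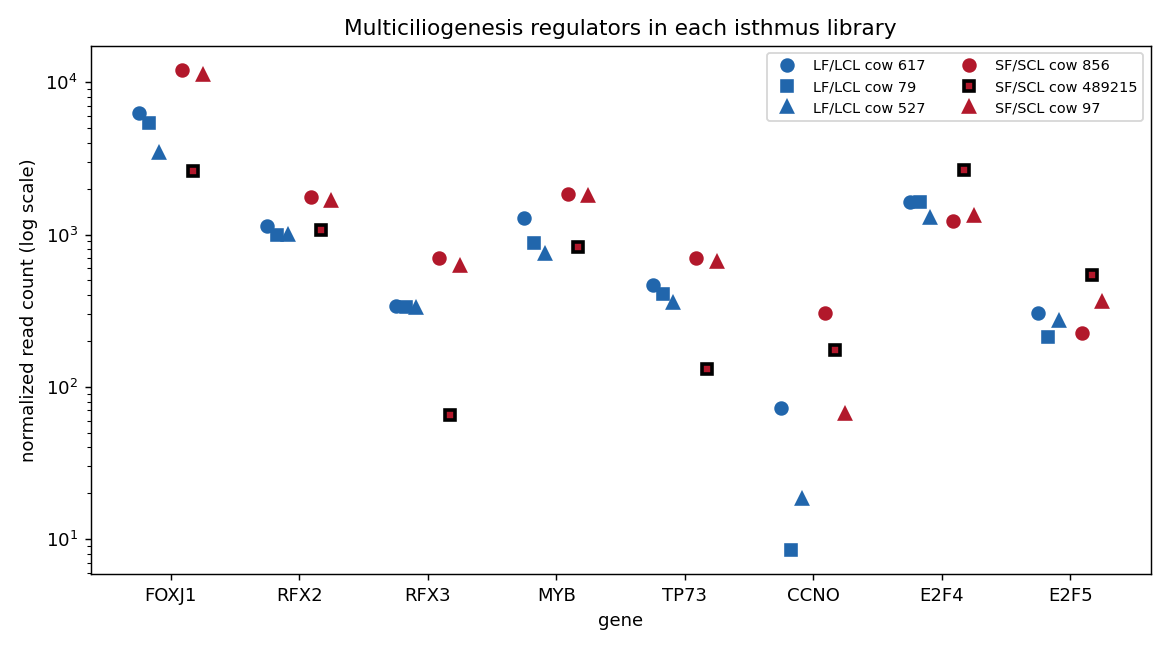
Normalized read count (log axis) of each regulator in each library, with LF/LCL cows in blue, SF/SCL cows in red and cow 489215 outlined in black. FOXJ1, RFX2, RFX3, MYB and TP73 are highest in cows 856 and 97, with cow 489215 at 2609 for FOXJ1 and 65.2 for RFX3, while E2F4 and E2F5 are highest in cow 489215.

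With all 6 libraries, 0 of the 7 members tested had a Benjamini-Hochberg adjusted p under 0.05 by limma, as had 0 of the 15387 genes tested (0%). At an unadjusted p under 0.05 limma gave 0 of the 7 members and 1333 of all genes (8.66%). On the recovered reads edgeR called 0 genes, with 1338 at an unadjusted p under 0.05, and DESeq2 called 416 genes, of which 0 were members. The smallest adjusted p among the 7 was that of RFX2 (limma, Benjamini-Hochberg, 0.647). The groups were without overlap for 0 of the 8 members, where 9.51% of the genes tested were without overlap and higher in SF/SCL and 8.60% were without overlap and lower. A p that misses the threshold does not show that these genes were alike in the groups.

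Without cow 489215, 5 of the 7 members tested had an adjusted p under 0.05 by limma and a higher value in SF/SCL, where 1600 of 15495 genes (10.3%) did. A further 1227 genes (7.92%) were called lower, with 0 members among them. The adjusted p (limma, Benjamini-Hochberg) was 0.0193 for FOXJ1, 0.00824 for RFX2, 0.00657 for RFX3, 0.0332 for MYB and 0.0240 for TP73, against 0.283 for E2F4 and 0.753 for E2F5. For the same 5 genes both remaining SF/SCL cows lay above all 3 LF/LCL cows, which was also the case for 27.1% of the genes tested. Under every other setting tried, the adjusted p of these 5 genes lay between 0.467 and 0.999 by limma, edgeR or DESeq2. The calls therefore rest on the omission of 1 library.

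**Figure D2:**
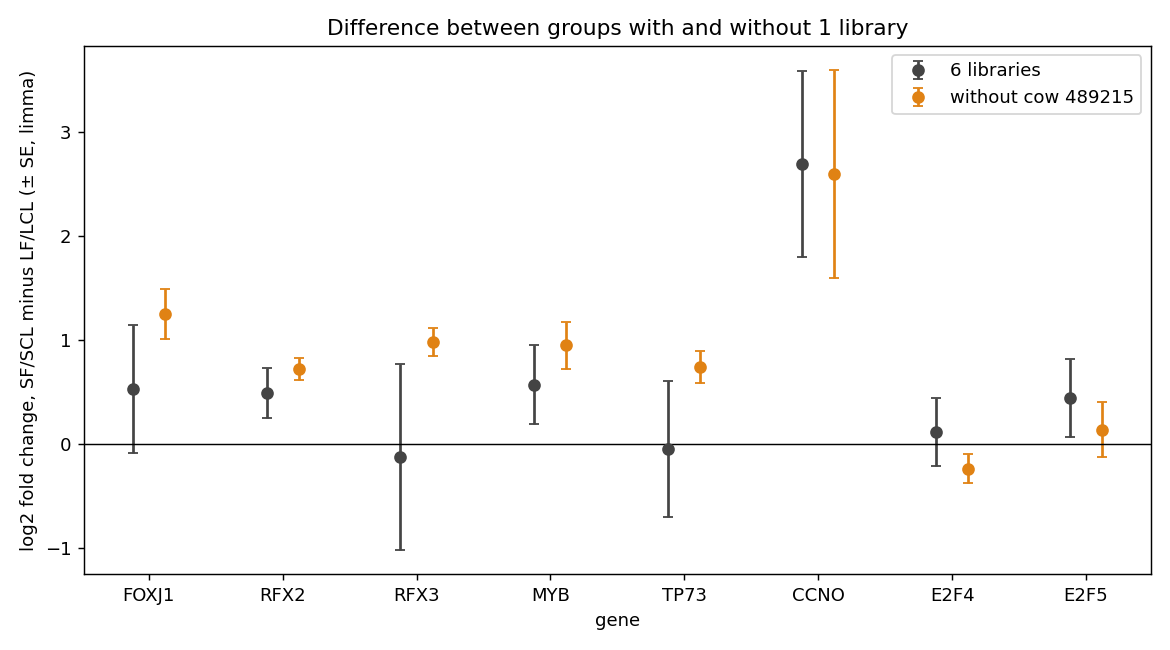
Log2 fold change of SF/SCL over LF/LCL for each regulator with its standard error from limma, with 6 libraries in grey and without cow 489215 in orange. The signs of RFX3, TP73 and E2F4 turn, the value of FOXJ1 goes from 0.53 to 1.25, and CCNO, from fits with other filters, lies at 2.69 and 2.59.

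Because whole tissue was sequenced, fewer cells of a type and less RNA per cell cannot be told apart. Of the 12 symbols in the general epithelium list 11 were found, and 9 of the 11 were higher in SF/SCL, 5 of them at an unadjusted p under 0.05 by limma and 0 at an adjusted p. The symbol not found was CDH1, the gene of E-cadherin. The authors name E-CADHERIN among the genes of processes enriched in the LF/LCL isthmus. EPCAM, a surface protein of epithelial cells and the most abundant of the list, had 12286, 9925 and 8529.6 normalized counts in LF/LCL cows 617, 79 and 527, and 15871, 20313 and 18854 in SF/SCL cows 856, 489215 and 97. The summed level of the list was 49293, 36601 and 31861 in the LF/LCL cows and 54170, 76230 and 60992 in the SF/SCL cows. Cow 489215, in which FOXJ1, RFX3 and TP73 were lowest, had the highest sum by size factor, but in CPM its sum of 2248 lay below the 2355 of cow 97.

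The smooth muscle list moved the other way in cows 856 and 97. All 9 of its genes found were lower in SF/SCL, with 2 at an unadjusted p under 0.05 and 0 at an adjusted p by limma, and the summed level was 918652, 841881 and 802186 in LF/LCL cows 617, 79 and 527 against 367298, 1273802 and 434649 in SF/SCL cows 856, 489215 and 97. ACTA2, smooth muscle actin, was its most abundant gene. The fibroblast list, led by COL3A1, had sums of 404376, 514382 and 487035 in the LF/LCL cows and 200794, 302233 and 210351 in the SF/SCL cows, with all 8 genes lower in SF/SCL, 6 at an unadjusted p under 0.05 and 0 at an adjusted p by limma. Thus the cows with the highest FOXJ1, RFX2, RFX3, MYB and TP73 had the lowest sums of muscle and fibroblast genes. Without cow 489215 limma called 8 of the 9 muscle genes and 7 of the 8 fibroblast genes lower in SF/SCL, and 5 of the 11 epithelium genes higher. The part of the tissue makeup in the members' values was not tested.

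To set each member beside epithelial genes of the same library, its log2 value minus the mean log2 value of the epithelium list was taken. For FOXJ1 this ratio was 1.07, 1.30 and 0.91 in LF/LCL cows 617, 79 and 527, and 2.08, -0.50 and 1.83 in SF/SCL cows 856, 489215 and 97. Cows 856 and 97 were again highest and cow 489215 lowest. The difference between the groups was 0.05 (two-sided exact permutation test, p = 1), where 0.1 is the smallest p that 3 against 3 allows, and 0.86 without cow 489215. For RFX3 the ratio was -3.14, -2.71 and -2.48 in the LF/LCL cows and -2.01, -5.80 and -2.35 in the SF/SCL cows. Cow 489215 was far below the rest, and the difference of -0.61 (exact permutation p = 1) turned to 0.60 without it.

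For the other members the difference in this ratio was 0.01 for RFX2, 0.09 for MYB, -0.53 for TP73, 2.21 for CCNO, -0.37 for E2F4 and -0.04 for E2F5, with exact permutation p from 0.2 to 1. Without cow 489215 it was 0.34, 0.57, 0.36, 2.21, -0.62 and -0.25 in the same order. The ratio of CCNO was thus as large without that cow as with it, and its group ranges overlapped in both cases. With EPCAM alone as the reference, the difference turned to -0.32 for FOXJ1, -0.35 for RFX2 and -0.28 for MYB, and was -0.97 for RFX3, -0.89 for TP73, 1.84 for CCNO, -0.73 for E2F4 and -0.40 for E2F5. The exact permutation p with EPCAM ran from 0.1, the smallest possible, for E2F4 to 1 for FOXJ1, so the direction for FOXJ1, RFX2 and MYB depends on the reference genes.

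**Figure D3:**
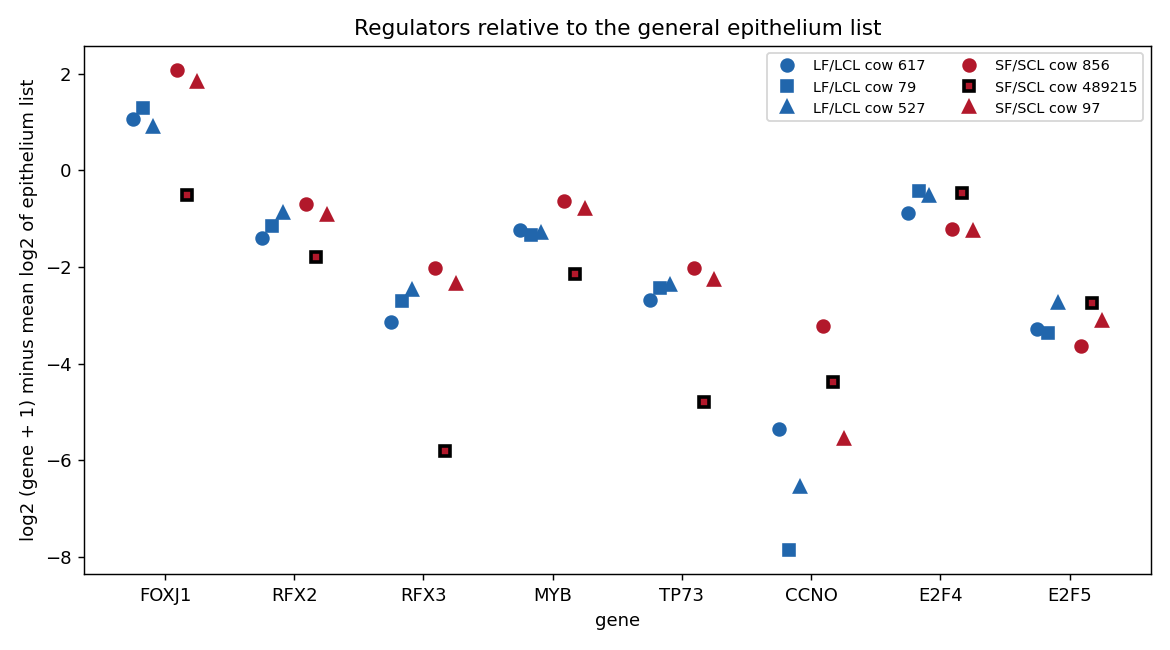
Log2 value of each regulator minus the mean log2 value of the general epithelium list in each library, with LF/LCL cows in blue, SF/SCL cows in red and cow 489215 outlined in black. Cow 489215 lies lowest for FOXJ1, RFX2, RFX3, MYB and TP73, at -0.50 for FOXJ1 and -5.80 for RFX3.

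The motile cilia axoneme list holds structural and assembly genes of the cilium, many of which are targets of FOXJ1 and the RFX factors. Of its 39 symbols 37 were found and 35 were tested, of which 29 were higher and 6 lower in SF/SCL, with a median log2 fold change of 0.46 against -0.02 over all genes tested. By limma 10 were higher at an unadjusted p under 0.05 and 0 at an adjusted p. Without cow 489215 the median was 0.91 against -0.00 over all genes tested, and 28 of the 35 were called higher and 0 lower. CAPS was the most abundant, PIFO was listed at 0 in every library and DNAH6 had 0.939 normalized counts in 1 cow and 0 in the others.

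DNAI1, an intermediate chain of the outer dynein arm, had 588, 475 and 510.3 normalized counts in LF/LCL cows 617, 79 and 527, and 1621, 783 and 1328 in SF/SCL cows 856, 489215 and 97. TPPP3, a microtubule-binding protein abundant in ciliated cells, had 11024, 9819.8 and 7552 in the LF/LCL cows and 19670.1, 17185 and 18906 in the SF/SCL cows. For both genes all 3 SF/SCL cows, cow 489215 included, lay above the LF/LCL cows. DNAH5, a heavy chain of the same dynein arm, had 2243, 2206 and 3184 in the LF/LCL cows and 7185, 626 and 10273 in the SF/SCL cows. It was lowest in cow 489215, as were FOXJ1 and RFX3, so the axoneme genes were not uniform in that library. By size factor it held the lowest count for 18 of the 35. Its summed level of the list by size factor, 75759, lay inside the LF/LCL range of 71243 to 84417. In CPM, however, its sum of 2234 was the lowest of all, against 2719 to 3144 in the LF/LCL cows.

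With the axoneme list in place of the epithelium list, a comparison chosen after seeing the data, the ratio of FOXJ1 was 2.26, 2.22 and 1.60 in LF/LCL cows 617, 79 and 527, and 2.43, 1.50 and 2.36 in SF/SCL cows 856, 489215 and 97. The FOXJ1 difference was 0.07 (exact permutation p = 0.7), and 0.37 without cow 489215. For the other members it was 0.03 for RFX2, -0.59 for RFX3, 0.11 for MYB, -0.51 for TP73, 2.23 for CCNO, -0.34 for E2F4 and -0.01 for E2F5, with exact permutation p from 0.2 to 1. Without that cow it was -0.16, 0.10, 0.07, -0.14, 1.71, -1.12 and -0.74 in the same order. The RFX2 ratio was -0.21, -0.23 and -0.19 in the LF/LCL cows, and -0.35, 0.21 and -0.38 in the SF/SCL cows. Relative to axoneme genes, RFX2 was thus lowest in the cows in which its count was highest.

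The list of the upstream switch and centriole amplification had 24 of 25 symbols found and 21 tested, of which 16 were higher and 5 lower in SF/SCL, with a median log2 fold change of 0.22, and 0 were past an unadjusted p of 0.05 by limma. Without cow 489215 the median was 0.37 and 7 of the 21 were called higher and 0 lower. MCIDAS, FOXN4 and CDC20B missed the filter on the SD, as CCNO did. In the RefSeq annotation MCIDAS lies next to CCNO, and CDC20B overlaps GPX8.

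MCIDAS, the coactivator of E2F4 and E2F5, had 12.6, 0.939 and 1.76 normalized counts in LF/LCL cows 617, 79 and 527, and 85.1, 10.7 and 15.2 in SF/SCL cows 856, 489215 and 97. FOXN4, a forkhead factor of the same program, had 12.6, 0 and 1.76 in the LF/LCL cows and 75.2, 0 and 13.0 in the SF/SCL cows. CDC20B, which hosts microRNAs of the multiciliated program, had 15.7, 1.88 and 3.51 in the LF/LCL cows and 120.0, 6.66 and 11.9 in the SF/SCL cows. For these 3 genes, as for CCNO, cow 856 was highest and cow 617 was the highest of the LF/LCL cows. The MCIDAS values rest on 12, 1 and 2 reads in the LF/LCL cows and 112, 8 and 14 reads in the SF/SCL cows, and a count of 0, as for FOXN4 in cows 79 and 489215, has a 95% exact Poisson interval up to 3.69 reads.

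STIL, which is needed to start new centrioles, had 242 normalized counts in cow 856, with the remaining 5 cows at 54.2 to 71.1. GMNC, which acts above MCIDAS, had 49.2, 35.7 and 58.0 in LF/LCL cows 617, 79 and 527, and 105.6, 17.3 and 105.1 in SF/SCL cows 856, 489215 and 97. GMNC was therefore high in cows 856 and 97 and low in cow 489215, in the manner of RFX3, whereas MCIDAS, FOXN4, CDC20B and STIL were set apart by cow 856, and CCNO was highest in cows 856 and 489215. PLK4, the kinase that controls centriole number, reached 732 in cow 856 and 509 in cow 489215, with the remaining cows at 339 to 407. The PLK4 value of cow 489215 depends on its size factor. Its reads were 382, inside the LF/LCL range of 343 to 463, against 964 in cow 856. CCDC67, the older symbol of DEUP1, a scaffold of centriole production, was 458 and 420.5 in cows 856 and 97, 258 in cow 489215 and 195 to 285 in the LF/LCL cows.

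**Figure D4:**
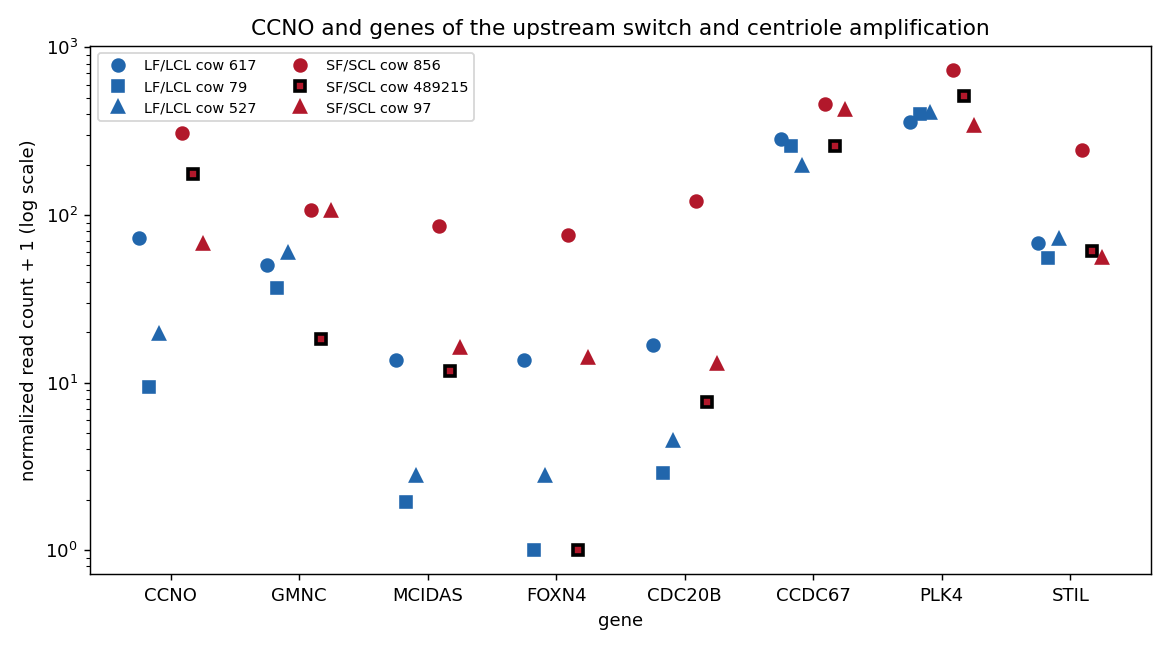
Normalized read count + 1 (log axis) of CCNO and of genes of the upstream switch and centriole amplification in each library, with LF/LCL cows in blue, SF/SCL cows in red and cow 489215 outlined in black. The genes drawn beside CCNO were picked from the list with their values in view. Cow 856 is highest for each gene drawn, and for 17 of the 24 genes of the list, at 306 for CCNO and 85.1 for MCIDAS before the addition of 1, and FOXN4 is listed at 0 in cows 79 and 489215.

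The intraflagellar transport list, whose products carry cargo along cilia, had 21 of 23 symbols found on 22 rows, because IFT27 stands on a pair of rows between which reads may be divided. Of the 22, 19 were higher and 3 lower in SF/SCL, with a median log2 fold change of 0.20, 1 at an unadjusted p under 0.05 and 0 at an adjusted p by limma. Without cow 489215 the median was 0.30, with 7 called higher and 0 lower. The sum of the list in that cow was 30539 by size factor, inside the LF/LCL range of 30402 to 33577. In CPM it was 900, below the LF/LCL range of 1130 to 1251.

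The list of relatives holds other genes of the members' families. Of the 20 relatives, all found, 15 were tested, 6 higher and 9 lower in SF/SCL, with a median log2 fold change of -0.13, or 0.09 if cow 489215 is left out, and 0 had an unadjusted p under 0.05 by limma. RFX7, the most abundant relative, had a log2 fold change of -0.25, and -0.35 without that cow (limma adjusted p = 0.0371). RFX6 was listed at 0 in every library.

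The mitotic cell cycle list had 25 genes, of which 16 were higher and 9 lower in SF/SCL, with a median log2 fold change of 0.07, or -0.02 if cow 489215 is left out, and 0 at an unadjusted p under 0.05 by limma. Without that cow 2 were called lower and 0 higher. The pair called was CCNB1, a mitotic cyclin and the most abundant of the list, at -2.89 (limma adjusted p = 0.00821), and PLK1, a mitotic kinase, at -1.56 (adjusted p = 0.0202). CCNB1 had 2070, 2897 and 4711 normalized counts in LF/LCL cows 617, 79 and 527, and 281, 4395 and 599 in SF/SCL cows 856, 489215 and 97, and was thus lowest in the cows with the highest FOXJ1. CDC20, an activator of the anaphase-promoting complex, had 94.2, 22.5 and 20.2 normalized counts in LF/LCL cows 617, 79 and 527, and 229, 139.8 and 55.3 in SF/SCL cows 856, 489215 and 97. Its cows stood in nearly the order seen for CCNO, and CDC20 is among the 3 genes with the pattern most like CCNO listed below. MKI67, a marker of dividing cells, stood in another order. It had 166, 55.4 and 174 in LF/LCL cows 617, 79 and 527, and 150.4, 41.3 and 93.2 in SF/SCL cows 856, 489215 and 97.

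The remaining lists describe other cells of the wall. In the oviduct secretory epithelium list 4 of 7 rows were tested, 3 higher and 1 lower, with a median log2 fold change of 0.66 and 2 at an unadjusted p under 0.05 by limma, and FOLR1 stood on a pair of rows. Its summed level, led by OVGP1, the oviduct glycoprotein, was 10736, 14306 and 15389 in LF/LCL cows 617, 79 and 527, and 284684, 24046 and 341772 in SF/SCL cows 856, 489215 and 97. The sums of cows 856 and 97 came mostly from OVGP1, at 271794 and 325158. Both FOLR1 rows, for a folate receptor, went the other way and were lowest in cows 856 and 97, the more abundant row with 3419, 7687 and 7789 in LF/LCL cows 617, 79 and 527, and 908, 10405 and 1735 in SF/SCL cows 856, 489215 and 97. Without cow 489215 limma called PAX8 higher in SF/SCL and both FOLR1 rows lower (adjusted p = 0.0182 and 0.0287), among 5 rows tested with a median of 0.48. OVGP1 and MUC16, a membrane mucin, missed the filter on the SD. With 6 libraries, in the fit without a filter, they were at 5.33 (limma adjusted p = 0.638) and 2.99 (limma adjusted p = 0.477). In the fit without cow 489215 filtered on the mean alone they were called higher, at 8.22 (limma adjusted p = 0.00316) and 4.15 (limma adjusted p = 0.00158). The cows that were high for FOXJ1 were thus high for some genes of the secretory list and low for others. By qPCR in more animals the authors found no group effect on OVGP1. Their own isthmus RNA-seq log2 fold change for OVGP1 was also higher in SF/SCL, but far smaller, and was given without a p value.

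The mesothelium list had sums of 2519, 3010.2 and 3387 in the LF/LCL cows and 26266, 3499 and 26744 in the SF/SCL cows, with 1 of 5 rows tested, BNC1, lower in SF/SCL at an unadjusted p under 0.05. MSLN had the highest mean of the list, but WT1 lay above it in LF/LCL cows 617 and 79, at 1269 and 1302 against 808 and 873. The genes of the list did not move together, since MSLN and WT1 were highest in cows 856 and 97 while LRRN4 had 283, 412 and 175 normalized counts in LF/LCL cows 617, 79 and 527, and 3.80, 5.325 and 16.3 in SF/SCL cows 856, 489215 and 97. LRRN4 was lower in all 3 SF/SCL cows than in any LF/LCL cow, with a log2 fold change of -5.09 in the fit without a filter (limma adjusted p = 0.366). By size factor MSLN was higher in all 3 SF/SCL cows than in any LF/LCL cow, with 3.04 in the same fit (limma adjusted p = 0.450). In CPM, however, the mesothelium sum of cow 489215 was 103, inside the LF/LCL range of 93.8 to 129. Without cow 489215, 3 rows were tested, and WT1 was called higher and LRRN4 and BNC1 lower. MSLN missed the filter on the SD there too, and was called higher, at 4.02 (adjusted p = 0.00248), in the fit filtered on the mean alone.

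All 7 endothelium genes were lower in SF/SCL, 1 at an unadjusted p under 0.05, with a median of -0.29 and sums from 10193 in cow 856 to 16307 in cow 79, and VWF was the most abundant. Without cow 489215 the endothelium median was -0.59, with 3 genes called lower and 0 higher. Of 11 leukocyte genes tested 4 were higher and 7 lower, with 0 at an unadjusted p under 0.05, a median of -0.25 and sums from 5219 in cow 489215 to 8476 in cow 856, and LCP1 was the most abundant. Without that cow the leukocyte median was -0.07 and 0 genes were called. In all of these lists 0 genes had an adjusted p under 0.05 by limma with 6 libraries. The part of these cells in the members' values was not tested.

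**Figure D5:**
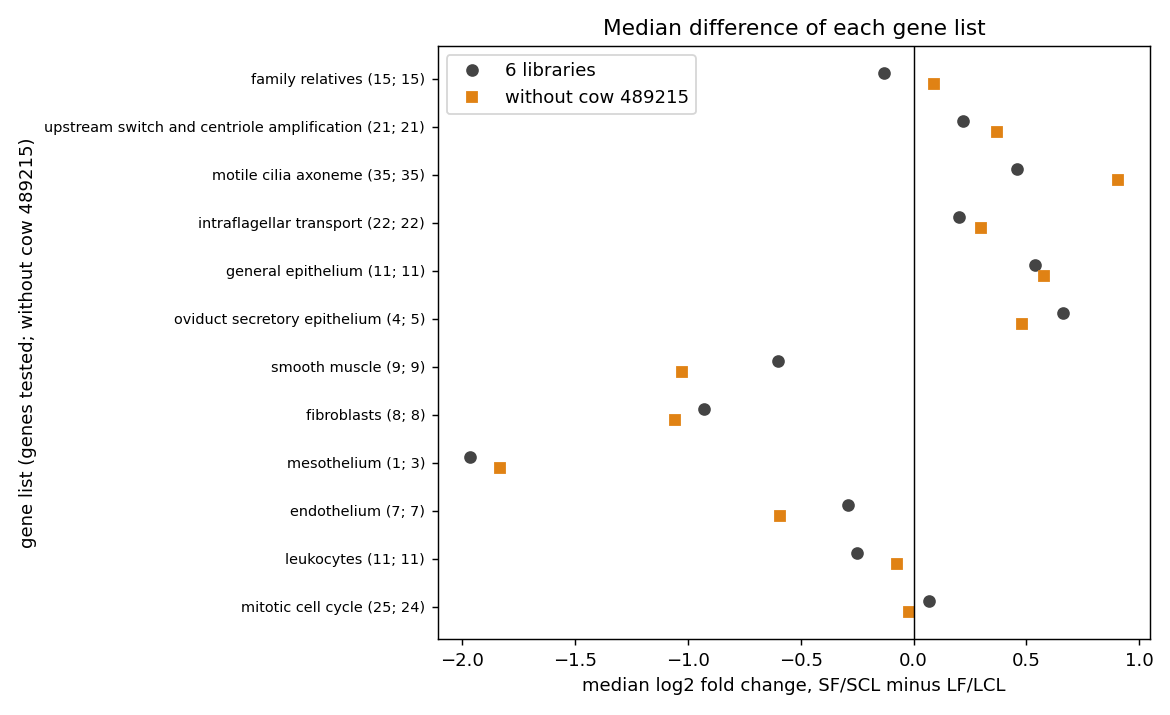
Median log2 fold change of SF/SCL over LF/LCL for each gene list, with 6 libraries in grey and without cow 489215 in orange, and the numbers of genes tested in brackets. The axoneme list goes from 0.46 to 0.91, the smooth muscle list lies below 0 in both cases, and the mesothelium value with 6 libraries is that of 1 gene.

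The members were compared with one another by the root mean square (RMS) difference of their log2 values over the 6 libraries, each centred on its own mean. With all 6 libraries the closest members were RFX2 and MYB, at 0.24, then E2F4 and E2F5, at 0.32, FOXJ1 and TP73, at 0.33, and RFX3 and TP73, at 0.34. This order changed without cow 489215, where RFX2 and TP73 were closest, at 0.08, and RFX2 and MYB lay at 0.22. RFX2 and RFX3, from the same family, were 0.93 apart, and 0.14 apart without cow 489215. The separation of RFX2 from RFX3 thus came mostly from that library. CCNO was the farthest from the others, at 1.49 to 2.12, and remained at 1.28 or more from each without that cow.

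Among all tested genes with a symbol, the 3 with the pattern most like each member over the 6 libraries were listed by the same measure. For FOXJ1 they were APOBEC4 (0.13), ZNF474 (0.18) and ARMC3 (0.18), and for RFX2 PTPRK (0.04), ESRP2 (0.07) and C16H1orf158 (0.07). APOBEC4 had 889, 593 and 464 normalized counts in LF/LCL cows 617, 79 and 527, and 1493, 375 and 1424 in SF/SCL cows 856, 489215 and 97. ESRP2, an epithelial splicing factor, is also on the epithelium list.

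For RFX3 they were CEP350, ANKMY1 and ZCCHC14 (each 0.09), for MYB KIF23 (0.10), WDR66 (0.11) and MORN3 (0.11), and for TP73 OSCP1 (0.08), TRAF3 (0.08) and RIN1 (0.09). CEP350, a centrosomal protein, had 2784, 2847 and 3076 normalized counts in LF/LCL cows 617, 79 and 527, and 5825, 624 and 5089 in SF/SCL cows 856, 489215 and 97. As with RFX3, the LF/LCL cows lay close together between a low cow 489215 and high cows 856 and 97.

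For E2F4 the genes were EMC8 (0.04), MGC134282 (0.05) and RABAC1 (0.05), and for E2F5 NUDT8, METTL12 and PIR (each 0.11), all of them highest in cow 489215. For CCNO they were FKBP1B (0.54), CDC20 (0.60) and CPVL (0.66), taken like the others from genes that passed the filter on the SD, which CCNO, MCIDAS, FOXN4 and CDC20B missed. FKBP1B had 29.3, 5.63 and 6.15 normalized counts in LF/LCL cows 617, 79 and 527, and 65.3, 47.9 and 18.4 in SF/SCL cows 856, 489215 and 97. It was highest in cow 856, then in cow 489215, as CCNO was.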

How the data were processed

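RNA of the isthmus of 6 cows was sequenced by the study, 1 library per cow. The authors aligned the reads to the masked bovine assembly UMD3.1 with TopHat2 2.0.8 and Bowtie2 2.1.0, counted reads with a unique alignment over Ensembl genes with HTSeq, and divided the counts by the DESeq 1.12.1 size factor of each library. The deposited signal values are these normalized counts. Whether counting used the strand is not given in the sources used here. Values in each library were whole multiples of a single step (100% of 147696 values within 0.1 of a whole read), from which the reads were recovered.

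SF/SCL was compared with LF/LCL, as grouped by the labels, with limma 3.58.1 in R 4.3.3 (trend and robust eBayes) on log2(value + 1), for genes whose mean exceeded both 5 and their SD, with Benjamini-Hochberg adjustment over all genes tested and a threshold of 0.05. A member that missed the filter was taken from the fit without one. Alternatives were edgeR 4.0.16 and DESeq2 1.42.0 on the recovered reads, scaling by library total, pseudocounts of 0.5 and 5, other filters and leaving out each cow. The ratio to epithelial genes was tested with an exact permutation test. The count tests and leave-out fits for CCNO filtered on the mean alone, the ratio to the axoneme list, the levels in CPM and the list counts without cow 489215 were chosen after seeing the data. Members and lists were chosen with earlier results of these data known.

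The 12 lists were family relatives, upstream switch and centriole amplification, motile cilia axoneme, intraflagellar transport, general epithelium, oviduct secretory epithelium, smooth muscle, fibroblasts, mesothelium, endothelium, leukocytes and mitotic cell cycle. Results of 1 gene of the relatives list are not reported here. Genes named are the members, genes of these lists, and for each member the 3 tested genes with the smallest RMS difference. Neighbouring genes are from the RefSeq annotation of assembly NIAB-ARS_B.indTharparkar_mat_pri_1.0, another assembly, so no positions are given. The tests were tried on simulated counts, where DESeq2 made a larger share of false calls than limma or edgeR. Its larger number of calls in these data is therefore uncertain. The simulation held no library that stood apart, so it cannot show which of these calls are false. A bound set beforehand on the share of simulated differences found was missed, and was replaced after the result was seen. Intervals from reads cover counting error only. Calculations used Python 3.11.15, numpy 2.4.6, pandas 2.3.3, scipy 1.17.1 and matplotlib 3.10.9.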

Additional observations from a re-analysis of the deposited data

How the results depend on the processing

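The number of genes past the threshold was 0 with limma and 416 with DESeq2, and from 0 to 2827 when 1 cow was left out, with 2827 without cow 489215 and 0 without any other cow. With edgeR, scaling by library total, other pseudocounts and other filters it was 0.

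The log2 fold change of RFX3 (-0.12) was 0.46 with edgeR and 0.48 with DESeq2, and that of TP73 (-0.04) was 0.27 and 0.29. With 1 cow left out, the log2 fold change ran from 0.15 to 1.25 for FOXJ1, 0.36 to 0.72 for RFX2, -0.73 to 0.98 for RFX3, 0.38 to 0.95 for MYB, -0.46 to 0.74 for TP73, 2.03 to 3.50 for CCNO, -0.23 to 0.32 for E2F4 and 0.14 to 0.77 for E2F5. TP73 was also above 0 without cow 617 (0.06), and E2F4 was -0.00 without cow 527. FOXJ1, RFX2, RFX3, MYB and TP73 passed the threshold only without cow 489215.

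The difference in the ratio to epithelial genes turned with EPCAM as the reference for FOXJ1 (-0.32), RFX2 (-0.35) and MYB (-0.28). With 1 cow left out it ran from -0.43 to 0.86 for FOXJ1, -0.21 to 0.34 for RFX2, -1.30 to 0.60 for RFX3, -0.20 to 0.57 for MYB, -1.03 to 0.36 for TP73, 1.57 to 2.83 for CCNO, -0.62 to -0.23 for E2F4 and -0.25 to 0.20 for E2F5. The cause of these changes was not tested. The reads of CCNO, MCIDAS, FOXN4 and CDC20B were few in several cows, which limits their ratios.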
